A study of Mus musculus with 4 samples.

Results

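Nampt and the 7 sirtuin genes, Sirt1 to Sirt7, were taken by their symbols from a table of read counts that holds 23420 genes, and all 8 were found and had enough reads to be tested. The libraries were made from sorted pancreatic β-cells of mice that carried DTA, a diphtheria toxin transgene. The mice had received doxycycline for 10 days to ablate most β-cells, and the cells measured are those sorted after it. The counts do not show whether each of these cells had survived the ablation. In both groups the DTA transgene and the doxycycline were the same, and the groups differed in the Bmal1 genotype, with 2 libraries labelled Bmal1KO and 2 labelled Bmal1+/-, the heterozygous controls. The promoter that drives the toxin, the cells in which Bmal1 is deleted, the strain, the age, the time of day of collection and the number of mice per library are not stated in the labels. Bmal1 stands in the table as Arntl, the gene for the transcription factor that pairs with CLOCK in the circadian clock.

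NAMPT is the rate-limiting enzyme of the salvage pathway that rebuilds NAD+ from nicotinamide. Sirtuins are deacylases that consume NAD+ and release nicotinamide, so NAMPT returns the product of their reaction to the NAD+ pool. In several tissues CLOCK and BMAL1 drive Nampt through E-boxes, SIRT1 in turn acts on clock proteins, and in β-cells both NAMPT and SIRT1 have been linked to insulin secretion. The study's labels pose 1 comparison, β-cells sorted after doxycycline with the Bmal1KO label against those with the heterozygous label.

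The DNA before the start sites of Nampt and Sirt1 is shown because these 2 members had the largest differences between the groups, and because Nampt is a textbook target of CLOCK and BMAL1. Windows of 300 bases, 250 before and 50 after each RefSeq start site (GRCm38.p6), were matched by symbol for 8 of the 8 members and searched on both strands for the E-box CACGTG and for the variant CACGTT. Only the 250 bases before the start are printed, 5′ to 3′ on the gene's own strand, with each CACGTG in capitals. The Nampt stretch is chr12:32820085-32820334 (plus strand) and lies inside the span of a Nampt transcript annotated as subject to nonsense-mediated decay, outside its exons. The Sirt1 stretch is chr10:63339036-63339285 (minus strand). All 250 bases lie inside the span of a protein-coding Sirt1 transcript, and the last 15 are annotated as Sirt1 exon.
Nampt: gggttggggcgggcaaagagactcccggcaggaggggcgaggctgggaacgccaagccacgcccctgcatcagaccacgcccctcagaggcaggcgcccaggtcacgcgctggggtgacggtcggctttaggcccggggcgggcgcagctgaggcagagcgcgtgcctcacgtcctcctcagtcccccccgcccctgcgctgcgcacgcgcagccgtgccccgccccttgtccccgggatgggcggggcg
Sirt1: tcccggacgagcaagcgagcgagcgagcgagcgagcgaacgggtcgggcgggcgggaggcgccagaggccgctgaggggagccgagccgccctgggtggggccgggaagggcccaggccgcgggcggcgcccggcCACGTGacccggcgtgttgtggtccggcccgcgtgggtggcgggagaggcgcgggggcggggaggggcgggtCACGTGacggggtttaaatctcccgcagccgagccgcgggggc

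The Sirt1 window held CACGTG at 2 places, beginning 115 and 43 bases before the start site (chr10:63339145-63339150 and chr10:63339073-63339078). None of the windows of Nampt or Sirt2 to Sirt7 held CACGTG, and none of the members' windows held CACGTT. Of all 32851 windows, 7.15% held at least 1 CACGTG, 0.594% held at least 2 and 4.69% held CACGTT. These letters say nothing about whether a factor binds there, and E-boxes outside the windows were not searched. Of the 124 tested genes with at least 2 CACGTG in a window, 1 rose in the libraries labelled KO and 0 fell, which is 0.807% against 2.66% of the 9536 genes whose windows held none and 2.54% of all genes tested. Their median log2 fold changes were 0.029 and 0.017.

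Deposited counts summed to between 31056116 and 38020488 per library. Levels are given as CPM, counts scaled to a common library total, with TMM factors that correct for differences in composition. Groups were compared with the quasi-likelihood test of edgeR, 2-sided, with Benjamini-Hochberg adjustment over all 14649 genes tested. The labels do not state that replicate libraries are from different mice, and the p-values therefore reflect library-to-library spread that can be technical. In bulk RNA, fewer cells of a type and less RNA per cell cannot be told apart. The β-cell markers Ins1, Ins2 and Iapp were abundant in every library, with Ins2 at 151722 to 194550 CPM. Of the 10 β-cell markers listed, 8 had a negative fold change and 3 fell. These were Ucn3 by 2.04, G6pc2 by 0.96 and Slc30a8 by 0.92 on the log2 scale (edgeR adjusted p = 0.0160, 0.0175 and 0.0230). Each of these calls was lost without heterozygous replicate 2, and that of Slc30a8 also without heterozygous replicate 1. Of 6 α-cell markers 5 had a positive fold change and 1 rose, Irx2 (2.64, adjusted p = 0.0230), a call lost without either heterozygous library, and Ppy, a marker of PP cells, was at 1.34 and did not pass. The part of these shifts in the members' levels was not tested. Arntl RNA, which as a count over the whole gene does not show whether a part is deleted, was higher under the KO label (75.8 and 65.6 CPM) than under the heterozygous label (23.0 and 14.98 CPM), so the groups are called by their labels and each direction is that of the libraries labelled KO. Its log2 fold change was 1.89 (SE 0.24, edgeR adjusted p = 0.0175), and leaving out heterozygous replicate 2 it was 1.61 (adjusted p = 0.0724).

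None of the 8 members passed the test between the Bmal1KO and heterozygous labels at an adjusted p of 0.05, in edgeR or in DESeq2, and 1 of them, Sirt1, had an unadjusted p under 0.05. Over all genes tested, 2.54% passed (1.2% higher and 1.34% lower) and 16.9% had an unadjusted p under 0.05. Sirt1 had the largest difference, with a mean 2.03-fold higher in the libraries labelled KO, followed by Nampt at 1.35-fold and Sirt6 at 1.16-fold. For the other five sirtuins the ratio of means lay between 0.980 and 1.09. The median log2 fold change was 0.072 over the members and 0.024 over all genes tested. For 3 of the 8 members both libraries labelled KO lay above both labelled heterozygous, and for 0 members they lay below, while over all genes 25.3% lay above, 23.8% below and 49% either way.

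**Figure D1:**
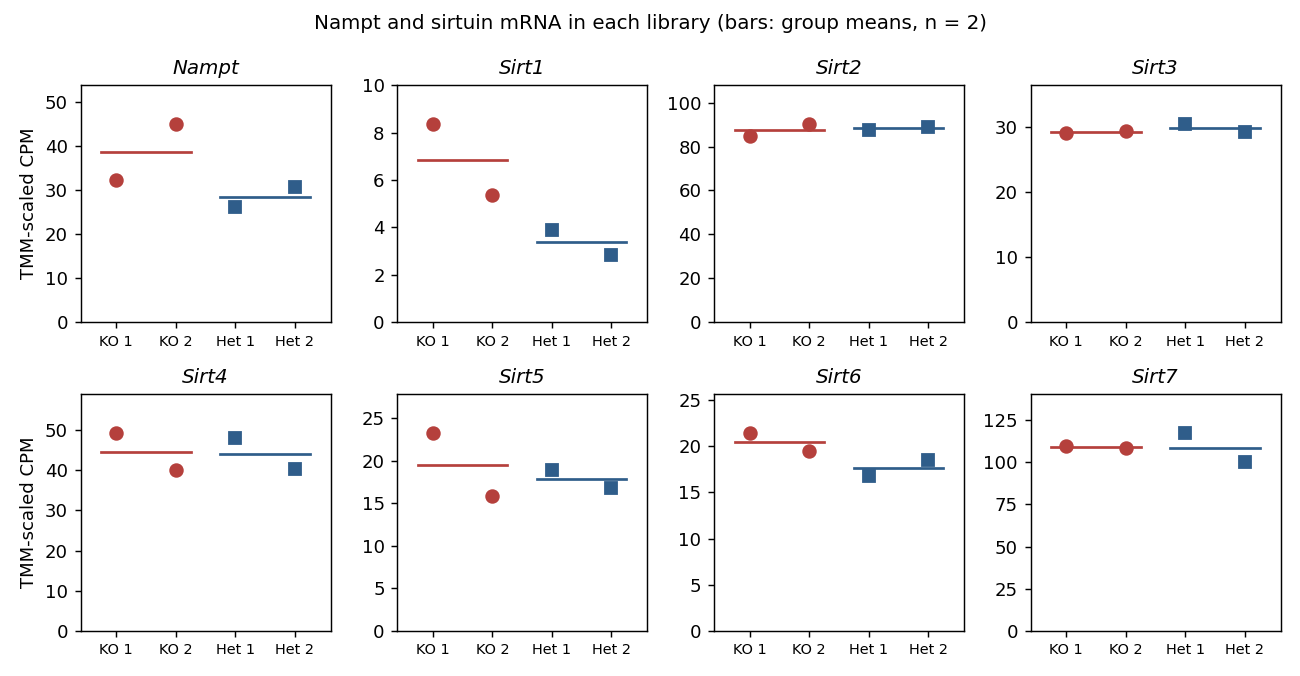
TMM-scaled CPM of each member (y axis, from 0) in the 2 libraries labelled KO (red circles) and the 2 labelled heterozygous (blue squares), with the mean of each group as a bar. The groups do not overlap for Nampt, Sirt1 and Sirt6 and overlap for Sirt2, Sirt3, Sirt4, Sirt5 and Sirt7.

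Nampt (ENSMUSG00000020572, chromosome 12, 32819545 to 32853349, plus strand, GRCm38) was at 32.3 and 45.0 CPM in KO replicates 1 and 2 and at 26.2 and 30.8 CPM in heterozygous replicates 1 and 2. Those values rest on 1060, 1441, 1015 and 1019 counts. KO replicate 2 stood above the other libraries, while KO replicate 1 exceeded heterozygous replicate 2 by little, and their 95% counting intervals, 30.4 to 34.3 and 29.0 to 32.8 CPM, overlapped. The means were 38.6 ± 8.996 and 28.5 ± 3.28 CPM (SD, n = 2 each), a log2 fold change of 0.44 (SE 0.22, 95% interval -0.086 to 0.96, edgeR adjusted p = 0.382). The interval runs from a slightly lower level to nearly a doubling. Leaving out KO replicate 2 brought the log2 fold change to 0.18 (adjusted p = 0.690), and leaving out KO replicate 1 brought it to 0.63 (adjusted p = 0.176).

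Markers of immune cells ranked the libraries as Nampt did when summed, and 3 of the 9 tested did so singly. Over the 12 listed genes the sums were at 259 and 738 CPM in KO replicates 1 and 2 and at 213 and 237 CPM in heterozygous replicates 1 and 2. Ptprc, the pan-leukocyte gene CD45, was at 5.24, 34.0, 7.85 and 7.96 CPM in the same order, and 0 of these 9 passed. S100a8 and S100a9, which mark neutrophils, had 0 counts in every library. Of all genes tested, 4.38% ranked the libraries in this order. The stromal sum was also highest in KO replicate 2, at 151 and 411 against 65.7 and 24.5 CPM, with 4 of 8 tested markers higher, or 0 without heterozygous replicate 2, and a median log2 fold change of 3.01. Marker sums of α-cells, PP cells and δ-cells were highest in KO replicate 2 as well. In the same library order they were 2913, 4534.5, 2686 and 3304 CPM for α-cells. They were 2323, 4623, 1601 and 1278 CPM for PP cells and 614, 1521, 1026 and 1114 CPM for δ-cells. The neuronal and glial sum was highest there too, while the β-cell, duct, acinar and endothelial sums were not. The part of any of these cells in the Nampt level was not tested.

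Sirt1 (ENSMUSG00000020063, chromosome 10, 63319005 to 63381704, minus strand), a nuclear deacetylase of the family, was the least abundant member. It was at 8.34 and 5.37 CPM in KO replicates 1 and 2, from 274 and 172 counts. In heterozygous replicates 1 and 2 it was at 3.90 and 2.85 CPM, from 151 and 94 counts. Both libraries labelled KO lay above both labelled heterozygous. The 95% counting intervals of KO replicate 2 (4.60 to 6.24 CPM) and heterozygous replicate 1 (3.30 to 4.57 CPM) did not meet. Nor did those of KO replicate 2 and KO replicate 1 (7.38 to 9.39 CPM), while those of the heterozygous replicates overlapped. Such intervals cover counting error only and do not measure the spread between replicates. The replicates also differed, by 1.55-fold under the KO label and 1.37-fold under the heterozygous label. The means of 6.86 ± 2.10 and 3.37 ± 0.745 CPM (SD, n = 2 each) gave a log2 fold change of 1.02 (SE 0.43, 95% interval 0.014 to 2.03, unadjusted p = 0.0476, edgeR adjusted p = 0.288). The difference did not pass after adjustment over all genes. Leaving out 1 library at a time gave log2 fold changes from 0.64, without KO replicate 1, to 1.30, without KO replicate 2.

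The summed acinar and endothelial markers ranked the libraries as Sirt1 did, and so did 3 of the 7 tested acinar genes and 1 of the 4 endothelial ones taken singly. The 9 listed acinar genes summed to 157 and 60.6 CPM in KO replicates 1 and 2 and to 42.0 and 9.69 CPM in heterozygous replicates 1 and 2, with Amy2a5 at 0 counts throughout, 0 of 7 tested markers past the threshold and a median log2 fold change of 2.53. The 7 endothelial genes summed to 39.3 and 17.7 against 14.3 and 10.7 CPM, with 0 of 4 past the threshold. This order of the libraries was found in 8.02% of all genes tested. The part of these cells in the Sirt1 level was not tested.

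The other nuclear sirtuins differed less. Sirt6 (ENSMUSG00000034748, chromosome 10, 81621785 to 81627797, minus strand), a chromatin deacetylase linked to the control of glycolytic genes and DNA repair, was at 21.4 and 19.5 CPM under the KO label and at 16.8 and 18.6 CPM under the heterozygous label. The groups did not overlap, but the gap between KO replicate 2 and heterozygous replicate 2 was smaller than the spread within either group, and the log2 fold change of 0.21 did not pass (SE 0.22, 95% interval -0.30 to 0.72, edgeR adjusted p = 0.693). Sirt7 (ENSMUSG00000025138, chromosome 11, 120618372 to 120625240, minus strand), a nucleolar deacetylase that acts on ribosomal DNA transcription, was at 110 and 108 CPM under the KO label and at 117 and 99.9 CPM under the heterozygous label. Both KO values lay between the heterozygous ones, with a log2 fold change of 0.0067 (95% interval -0.34 to 0.36).

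Sirt2 (ENSMUSG00000015149, chromosome 7, 28766735 to 28788661, plus strand), the mainly cytosolic sirtuin that deacetylates tubulin, was nearly flat over the libraries. It was at 84.9 and 90.1 CPM under the KO label and at 87.4 and 89.1 CPM under the heterozygous label. The log2 fold change was -0.012 with a 95% interval of -0.34 to 0.32, and its sign turned with the scaling, to 0.0033 with upper quartile factors and 0.035 with library totals alone. The value of 1.02 seen for Sirt1 lies outside the interval of every other member, whose upper ends run from 0.32 (Sirt2) to 0.96 (Nampt). The interval of Sirt1 itself, 0.014 to 2.03, overlaps each of them.

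The mitochondrial sirtuins overlapped between the groups. Sirt3 (ENSMUSG00000025486, chromosome 7, 140863666 to 140882309, minus strand), the main mitochondrial deacetylase, was at 29.1 and 29.4 CPM under the KO label and at 30.4 and 29.3 CPM under the heterozygous label, with a log2 fold change of -0.029 (95% interval -0.45 to 0.39) that was 0.016 with library totals alone. Sirt4 (ENSMUSG00000029524, chromosome 5, 115478010 to 115484725, minus strand), which restrains glutamate dehydrogenase and is known for its tie to insulin secretion, was at 49.2 and 40.0 CPM under the KO label and at 48.0 and 40.3 CPM under the heterozygous label. Its replicates differed by 1.23-fold and 1.19-fold while the group means differed by 1.01-fold (log2 fold change 0.015, 95% interval -0.43 to 0.46). Sirt5 (ENSMUSG00000054021, chromosome 13, 43365496 to 43395203, plus strand), which removes succinyl and malonyl groups, was at 23.3 and 15.9 CPM under the KO label and at 18.9 and 16.9 CPM under the heterozygous label. The KO libraries enclosed the heterozygous ones, and its log2 fold change was 0.13 (95% interval -0.48 to 0.74), or -0.20 without KO replicate 1.

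**Figure D2:**
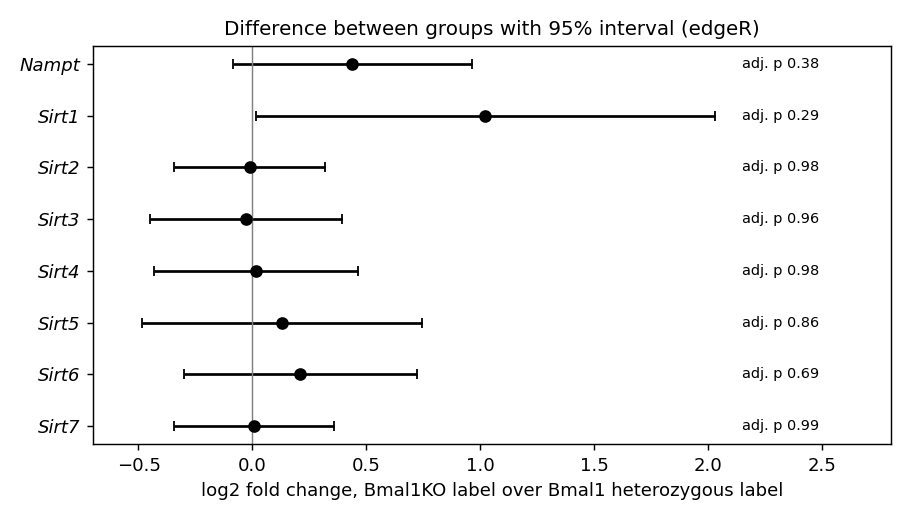
Log2 fold change of the libraries labelled KO over those labelled heterozygous (x axis) with its 95% interval from edgeR, 1 line per member, and the adjusted p at the right. The interval of Sirt1 begins at 0.014, and those of the other seven members include 0.

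Counts cover whole genes, and no label or header states whether the counting used strand. Exons of Sirt3 overlap those of Ric8a over 418 bases and Psmd13 over 342 bases on the opposite strand, 6.998% and 5.73% of the exon length of Sirt3. For Sirt2 the overlap with Nfkbib, also on the opposite strand, is 42 bases, so without strand a small share of the reads of Sirt3 and Sirt2 cannot be told apart from their neighbours. Sirt7 shares 124 bases with Mafg and 54 bases with the microRNA gene Mir6936 on its own strand, where strand would not separate the reads. Nampt, Sirt4, Sirt5 and Sirt6 overlap no other annotated exon, and Sirt1 overlaps 65 bases of the antisense gene model Gm16145.

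Per kilobase of annotated exon, the levels of the members spread over more than an order of magnitude. Sirt7 was at 21.1 ± 1.38, Sirt4 at 18.5 ± 2.05 and Sirt2 at 17.5 ± 0.446 CPM per kb (mean ± SD over 4 libraries), and the range of each overlapped that of the next. Sirt6 (6.84 ± 0.691) and Nampt (6.64 ± 1.59) formed a middle pair whose ranges overlapped. Sirt3 (4.95 ± 0.0965), Sirt5 (3.07 ± 0.537) and Sirt1 (0.959 ± 0.448) followed, each separated from the next by a gap between their ranges. With the longest annotated transcript as the length, Sirt2 came first at 41.5 CPM per kb, Nampt seventh at 7.42 and Sirt1 again last at 1.15. The order above Sirt1 therefore depends on the length assumed, and the counts do not show which transcripts were made.

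**Figure D3:**
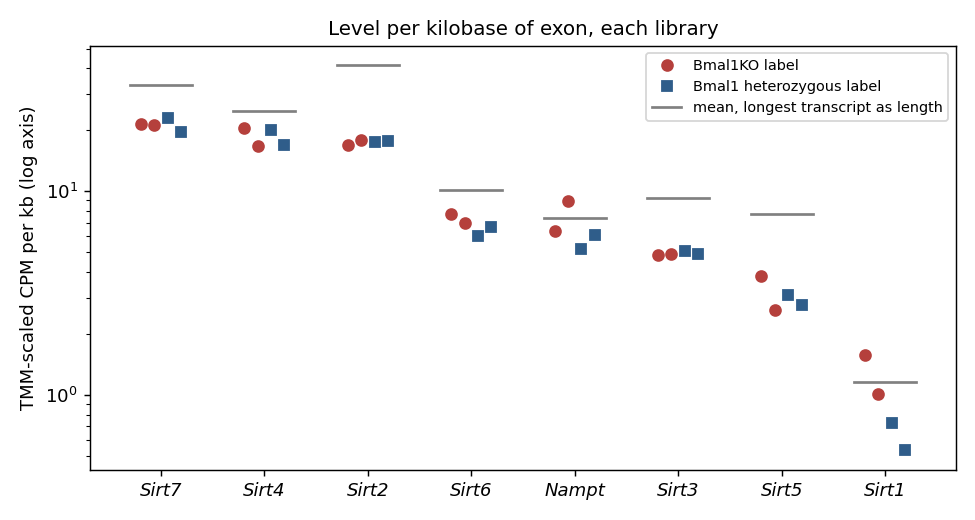
Level per kilobase of the union of annotated exons (y axis, log scale, TMM-scaled CPM per kb) in each library, with members ordered by their mean, KO label as red circles and heterozygous label as blue squares. Grey bars give the mean with the longest transcript as length, which moves Sirt2 to the top, and Sirt1 is lowest either way.

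Within the family, the 3 most abundant sirtuins kept similar shares of sirtuin RNA over the libraries. Summed per kilobase, the 7 sirtuins were at 76.6 and 71.2 CPM per kb in KO replicates 1 and 2 and at 75.1 and 68.8 CPM per kb in heterozygous replicates 1 and 2. Sirt7 made up 27.8% to 30.3% of that sum, Sirt4 23.4% to 26.8% and Sirt2 22.0% to 25.7%, with both groups mixed in each range. Sirt6 made up 10.0% and 9.83% under the KO label and 8.02% and 9.69% under the heterozygous label, and Sirt1, the smallest part, differed most for its size. It made up 2.04% and 1.42% under the KO label and 0.974% and 0.776% under the heterozygous label.

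Profiles over the 4 libraries were compared by the distance between log2 levels centred on each gene's mean, among 8893 other genes at a mean of 10 CPM or more. Nearest to Nampt were Zcchc10 (distance 0.068), Atrn (0.088), which encodes attractin, and Trappc8 (0.090), a subunit gene of a vesicle tethering complex. Nearest to Sirt1 was Dusp1 (0.036), an immediate early gene that encodes a MAP kinase phosphatase, at 111 and 70.1 CPM under the KO label and 51.5 and 37.5 CPM under the heterozygous label. Dusp1 did not pass either (edgeR adjusted p = 0.103). The genes nearest to the other sirtuins were Uvrag for Sirt2, Fkbp1a for Sirt3, Uimc1 for Sirt4, Slc25a1 for Sirt5, Dph3 for Sirt6 and Srsf1 for Sirt7, at distances of 0.011 to 0.048. With 4 libraries, a small distance describes these libraries only.

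Other genes of NAD+ metabolism and of lysine deacetylation were taken as 8 lists, of which 100 different genes were tested. Of these, 1 rose in the libraries labelled KO and 0 fell, 1% against 2.54% of all genes, and their median log2 fold change was 0.084 against 0.024. The gene that rose was Tubb3, which stands in the nuclear list although its product is not a nuclear protein.

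Of 11 tested genes of NAD+ synthesis and salvage, 0 passed. The fold change was positive for 6 and negative for 5 of them, with a median of 0.089 on the log2 scale. The smallest p-values were those of Nmnat3, which encodes the mitochondrial enzyme that joins nicotinamide mononucleotide to an adenylate (12.7 and 12.5 against 22.9 and 15.2 CPM, log2 fold change -0.60, edgeR adjusted p = 0.339), and Nmrk1, a nicotinamide riboside kinase gene (8.10 and 7.34 against 6.12 and 4.90 CPM, 0.48, adjusted p = 0.542). Nmnat1, the nuclear enzyme next after NAMPT in the pathway, named after its values were seen, was at 5.21 and 9.21 against 10.1 and 7.60 CPM, so its groups overlapped. Of the genes whose enzymes open the route from tryptophan to NAD+, Ido1 and Ido2 had 0 counts in every library and Tdo2 was low, at 1.46 and 1.28 against 1.03 and 0.878 CPM from 29 to 48 counts. Acmsd, whose enzyme draws an intermediate of that route away from NAD+, had 0 counts as well. Naprt, which feeds nicotinic acid into the pathway and stands in the table as Naprt1, was at 21.1 and 11.7 against 14.4 and 10.4 CPM and did not pass.

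Among 6 tested genes of NAD+ clearance and conversion to NADP(H), 0 passed. Nadk2, the mitochondrial NAD+ kinase, stands in the table under its older name Nadkd1 and was at 26.3 and 20.2 CPM under the KO label and at 12.2 and 12.05 CPM under the heterozygous label. Its log2 fold change was 0.94 (SE 0.24, edgeR adjusted p = 0.106), so the groups were well apart but it did not pass. It passed in DESeq2 (adjusted p = 0.0215) and without KO replicate 2 (edgeR adjusted p = 0.0451). Nnt, the transhydrogenase that passes hydride from NADH to NADP+, was at 94.6 and 90.1 against 116 and 108 CPM (-0.27, adjusted p = 0.388).

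Enzymes that compete with sirtuins for NAD+ gave no call. Of 20 tested genes, 13 had a positive and 7 a negative fold change, with a log2 median of 0.28. Tnks2, a tankyrase gene, was at 166 and 164 against 67.2 and 141 CPM (log2 fold change 0.67, edgeR adjusted p = 0.342), where heterozygous replicate 1 alone was far below the rest. Leaving that library out brought the log2 fold change to 0.22 (adjusted p = 0.845), and leaving out the other heterozygous library brought it to 1.29 (adjusted p = 0.0838). Parp3 was at 6.36 and 6.78 against 4.42 and 2.27 CPM (0.97, adjusted p = 0.343). Parp1 and Cd38 are named after their values were seen. Parp1, the main poly(ADP-ribose) polymerase, was at 150 and 174 against 164 and 171 CPM, and Cd38, the ectoenzyme that breaks down NAD+, was low everywhere, at 2.01 and 1.12 against 0.646 and 0.212 CPM. Of 7 genes listed for ADP-ribose removal, 0 passed. The nearest were Macrod1 (36.6 and 25.2 against 22.5 and 17.8 CPM, 0.61, edgeR adjusted p = 0.275) and Adprhl1, which rests on 20, 30, 9 and 0 counts. A place in this list does not show that a gene's product has that activity.

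Of 10 regulators and partners of SIRT1, 0 passed. Ctbp2, a corepressor gene, had the smallest p, with 22.8 and 17.9 against 12.6 and 14.0 CPM (log2 fold change 0.62, edgeR adjusted p = 0.265), followed by Hic1, a repressor of Sirt1 transcription, at 3.11 and 3.40 against 1.63 and 2.24 CPM (0.75, adjusted p = 0.539). The nuclear list of sirtuin substrates and targets had 1 of 18 tested genes that rose, Tubb3, with 57.7 and 48.0 against 27.8 and 25.4 CPM (0.99, SE 0.18, edgeR adjusted p = 0.0439). Tubb3 encodes a cytoskeletal β-tubulin, neither a nuclear protein nor the α-tubulin that SIRT2 is known to deacetylate. It no longer passed when KO replicate 1 (0.82, adjusted p = 0.0736), heterozygous replicate 1 (1.05, adjusted p = 0.152) or heterozygous replicate 2 (0.91, adjusted p = 0.298) was left out.

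Of 17 tested mitochondrial substrates of sirtuins, 0 passed, 10 had a positive and 7 a negative fold change, and the log2 median was 0.043. Acss1, the mitochondrial acetyl-CoA synthetase that SIRT3 deacetylates, had the smallest p, with 8.74 and 3.90 CPM under the KO label and 0.749 and 0.878 CPM under the heterozygous label. The groups lay well apart but the difference missed the threshold (log2 fold change 2.95, SE 0.58, edgeR adjusted p = 0.0522), and it passed in DESeq2 (adjusted p = 0.000243) and when KO replicate 2 was left out (edgeR adjusted p = 0.0122). In limma-voom the adjusted p was 0.104, and without KO replicate 1 the log2 fold change was 2.23 (edgeR adjusted p = 0.147). Uox, the urate oxidase gene, was next, at 20.9 and 10.2 against 3.43 and 5.87 CPM (1.74, adjusted p = 0.107), and it too passed in DESeq2 (adjusted p = 0.00639) and when KO replicate 2 was left out (edgeR adjusted p = 0.0236), while without KO replicate 1 it was at 1.11 (adjusted p = 0.230). Sod2 and Idh2, mitochondrial enzymes that SIRT3 acts on, named after their values were seen, overlapped or differed little, at 84.4 and 64.0 against 63.3 and 80.9 CPM and at 189 and 157 against 196 and 188 CPM. Acss1 and Uox both ranked the libraries as KO replicate 1, KO replicate 2, heterozygous replicate 2 and heterozygous replicate 1. For Acss1 each heterozygous library had 29 counts, so its order between them rests on the scaling alone. Of all genes tested, 6.76% had this order. The acinar and endothelial sums were also highest in KO replicate 1 but had the heterozygous libraries the other way round. The part of those cells was not tested.

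The 11 classical lysine deacetylases, the zinc-dependent counterparts of the sirtuins, gave 0 calls as well. Their median log2 fold change was -0.032, within a range of -0.36 to 0.27, and the nearest were Hdac7 (13.9 and 14.8 against 19.8 and 17.0 CPM) and Hdac11 (28.9 and 25.9 against 23.5 and 21.8 CPM).

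**Figure D4:**
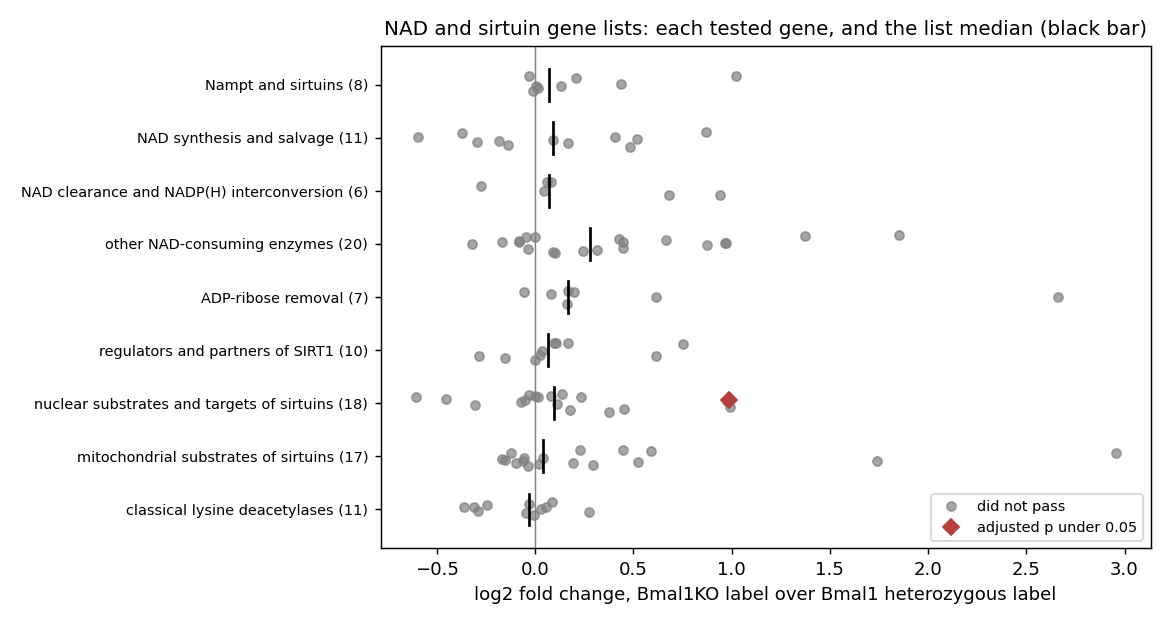
Log2 fold change of each tested gene (x axis) by list, with the number tested in brackets and the list median as a black bar. Most genes lie near 0, and the red diamond, the gene past an adjusted p of 0.05, is Tubb3 at 0.99.

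Of 11 clock genes in the same libraries, 4 rose and 2 fell, where 1.2% of all genes tested were higher and 1.34% lower. Npas2, a paralog of CLOCK, had a log2 fold change of 3.14 and Cry1, a repressor of CLOCK and BMAL1, one of 1.82, and Cry2 also rose (1.01), while Nr1d2, the REV-ERBβ gene, fell by 2.96 on the log2 scale and Per3, named after its values were seen, fell by 2.24. Clock itself was at 47.1 and 51.0 against 65.1 and 59.8 CPM and did not pass (-0.35, edgeR adjusted p = 0.322). Of these calls those of Arntl, Cry1, Cry2 and Per3 were lost without heterozygous replicate 2, and those of Cry2 and Per3 also without heterozygous replicate 1. The Nampt value, at 0.44, was smaller in size than those of the 6 clock genes that passed, which were selected by passing. The 5 clock genes that did not pass were at -1.80 (Nr1d1), 0.50 (Per1), 0.44 (Per2), -0.35 (Dbp) and -0.35 (Clock). In DESeq2, and in edgeR with no filter, 7 of the clock genes passed. Differences between genes were not tested.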

How the data were processed

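The deposited files are unnormalized read counts by gene symbol and a scaled signal, in which each count is multiplied by 1 constant per library for 14648 of its 14649 gene names, while the other, a name turned into a date, stands on 2 rows of the count table. Whole reads were recovered from 100% of the scaled values at a tolerance of 0.01, and edgeR on them gave 372 calls, as on the counts. STAR, edgeR and mm10 appear in the submitters' processing notes without versions or roles, and RNeasy Plus Micro and SMART-Seq v4 low-input kits in the labels' protocols. How reads were counted, with or without strand and on which annotation, is not stated there.

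Genes were kept by filterByExpr at a minimum count of 10 and a total of 15, then TMM-scaled and fitted with edgeR 4.0.16 (glmQLFit, glmQLFTest) in R 4.3.3 on all 4 libraries, with group as the only term. Standard errors and 95% intervals were derived from the F statistics. The procedure was also run on simulated data, but how often it finds a change of a given size is not reported here. Counting intervals are exact Poisson intervals, and since reads carry no molecular identifiers they cover counting error only. Replicates differed by more than sampling noise (chi-square per degree of freedom 63.9 and 42.9), so none was counted as a copy. Coordinates and exon lengths are from GENCODE M21 (GRCm38) and promoters from RefSeq (GRCm38.p6). A few listed genes were found under older symbols given by RefSeq, and 1 listed gene is not reported here.

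The members and lists were chosen with earlier results of these data known. The text names the 8 members, Arntl, from each list the genes past the threshold (5 at most) or, failing any, those with the 2 smallest p-values, and the nearest profiles (3 for Nampt, 1 per sirtuin, prior count 3). Alternatives were other scalings and filters, DESeq2 1.42.0, limma 3.58.1 (voom, and trend on the log2 of the deposited scaled values plus 1), a replicate block, leaving out each library and a threshold of 0.1. Recovered reads were added after seeing the data.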

Additional observations from a re-analysis of the deposited data

How the results depend on the processing

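The count of members past the threshold was 0 under every alternative listed for it. Nampt, Sirt1 and Sirt6 kept a higher level under the KO label in all 14 fits, at 0.18 to 0.63, 0.64 to 1.30 and 0.12 to 0.27. For each of these members both libraries labelled KO lay above both labelled heterozygous, as for 25.3% of all genes. Leaving out 1 library could therefore hardly turn their sign. The recovered reads nearly equal the counts, so that fit adds little. Members near 0 changed sign without passing: Sirt2 was at 0.0033 with upper quartile factors, 0.035 with library totals and 0.026 at a mean of at least 5 CPM, and Sirt3 at 0.016 and 0.0094 in the last pair. With 1 library left out, Sirt2 ranged from -0.058 to 0.0035, Sirt4 from -0.17 to 0.15, Sirt5 from -0.20 to 0.38 and Sirt7 from -0.12 to 0.12. Against 176 higher and 196 lower genes, there were 430 and 378 with no filter, 266 higher at a mean of at least 5 CPM, 624 and 562 in DESeq2, 378 and 350 at a threshold of 0.1, and 17 to 404 higher and 8 to 422 lower without 1 library, lowest without heterozygous replicate 2. The split of calls moved under 10 points with the scaling. The labels' replicate numbers do not show pairing (correlation of deviations -0.019), and with the replicate block 313 genes were higher and 2 genes of the nuclear list and 1 of the mitochondrial list passed. The mitochondrial count of 0 was 1 with upper quartile factors, library totals, limma-trend or a threshold of 0.1, 2 with no filter or in DESeq2 and 0 to 3 without 1 library. The nuclear count ranged from 0 to 1 and that of clock genes from 3 to 6 without 1 library, and the clearance list had 1 in DESeq2 and 0 to 1 without 1 library. By the longest transcript, levels per kb were 41.5 for Sirt2, 9.21 for Sirt3, 24.7 for Sirt4, 7.73 for Sirt5, 10.1 for Sirt6 and 33.2 for Sirt7. The cause of these shifts was not tested. A fit with 1 library left out assumes that the lone library varies like the other group, and with 94 to 274 counts Sirt1 is the member that depth limits most.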
